A study of Mus musculus with 6 samples.

Results

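The levels of 9 genes of the B cell surface and its signalling (Cd79a, Cd79b, Ms4a1, Fcmr, Cd22, Pax5, Blk, Cr2 and Fcer2a) were taken by symbol from a table of 16199 distinct gene symbols. All 9 were in the table and all 9 entered the test, among 14025 genes tested. They were measured in infarcted mouse myocardium 7 days after the left anterior descending branch of the coronary artery was ligated. Of the 6 libraries, 3 came from mice labelled ITIH5 knockdown and 3 from mice labelled wild type, and both groups had the ligation. The sources used here do not give the strain, sex or age of the mice, nor how the knockdown was made or in which cells it acts. The labels do not say whether each library is a separate animal, so a p-value here reflects library-to-library spread that may be technical.

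B cells recognise antigen through a membrane immunoglobulin that cannot signal by itself. It is carried by the CD79A and CD79B chains, whose cytoplasmic tails are phosphorylated by SRC-family kinases such as BLK and then recruit SYK, BTK and PLCG2. The complement receptor CR2 strengthens this signal and CD22 dampens it. In mice, B cells enter the infarcted heart in the first week and have been linked to monocyte mobilisation, and the pericardial fat around the heart holds lymphoid clusters rich in B cells.

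The values are named TPM, the length-corrected share of a library's transcripts, but were adjusted in a way that is not stated. Comparing levels of different genes, or taking their ratios, assumes that the adjustment kept genes comparable, which was not tested. Low values were stepped, with a step of 0.889 to 1.163 depending on the library, so a value near 1 is a single step. No counts are given, and the sequencing depth is unknown. Itih5 itself, the targeted gene, was not lower in the libraries labelled knockdown. It was at 18.4, 10.5 and 19.96 in the libraries labelled knockdown, against 9.73, 13.1 and 17.2 in wild type (limma adjusted p = 0.645, exact two-sided permutation p = 0.5, where 0.1 is the smallest possible). All directions are therefore those of the labels.

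The 9 B cell genes had lower means on the log2 scale in the libraries labelled knockdown, where 49.2% of all tested genes did, but none of the 9 passed the test. Cr2 reached the minimum mean of 1 only through wild type, so its direction carries no weight. The members rise and fall together and were chosen with earlier results of these data known. The shared direction is therefore a description and adds no support. With limma and Benjamini-Hochberg adjustment over all 14025 genes, 0 of 9 were called, as were 0 of all genes in either direction (0% of those tested). At an unadjusted p under 0.05, 2 of the 9 (Cd79a and Fcmr) were lower and 0 higher, where 6.55% of all tested genes were lower and 8.29% higher. The median log2 difference (libraries labelled knockdown minus wild type) was -1.11 over the 9 genes and 0.0046 over all tested genes. The groups overlapped for each of the 9. The library labelled knockdown replicate 3 lay within the wild-type range for 8 of the 9, while replicates 1 and 2 of that group had the lowest values for 7 of the 9. Fewer B cells and less RNA per B cell cannot be told apart in bulk tissue.

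The antigen receptor's signalling chains come first. Cd79a, the gene of the CD79A (Ig-alpha) chain, is on chromosome 7, plus strand, from 24897381 to 24902197 (mm10) and is protein coding, like the other 8. Its values were 4.26, 4.63 and 27.9 in the libraries labelled knockdown, against 31.3, 18.7 and 63.7 in wild type. Replicate 3 of the labelled knockdown group thus lay inside the wild-type range and the other 2 below it. The means were 12.3 ± 13.6 in the libraries labelled knockdown and 37.9 ± 23.2 in wild type (SD, n = 3 each). The fitted log2 difference was -1.86 (SE 0.71, 95% interval -3.54 to -0.18, limma adjusted p = 0.314), the largest of the 9.

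Cd79b encodes CD79B (Ig-beta), the partner of CD79A, on the minus strand of chromosome 11 from 106311341 to 106314762. Its values were 7.55, 6.59 and 25.95 in the libraries labelled knockdown, against 23.5, 17.8 and 44.3 in wild type. The pattern over the libraries is that of Cd79a, with a smaller log2 difference of -1.19 (SE 0.53, 95% interval -2.43 to 0.05, limma adjusted p = 0.343). The level of Cd79a divided by that of Cd79b was 0.564, 0.702 and 1.08 in the libraries labelled knockdown, against 1.33, 1.05 and 1.44 in wild type. So Cd79b had the higher level of the pair only in replicates 1 and 2 of the labelled knockdown group. This ratio was chosen after its values were seen and was not tested.

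Promoters are shown for Cd79a and Fcmr, the members with an unadjusted p under 0.05, and for Cd22, the only member with a palindromic EBF match. The sequences, from RefSeq (GRCm38.p6), run 5′ to 3′ on the gene's strand from 250 bases before the annotated start to 50 after it. RefSeq's table held 6 of the 9 members; Cd79b, Ms4a1 and Blk were not matched. Capitals mark matches on either strand to motifs of factors that act in B cells: the octamer ATGCAAAT, the EBF palindrome (TCCC and GGGA separated by any 2 bases), the E box CAGGTG and the Ets site AGGAAGT.
Cd79a, chr7:24897247-24897546, plus strand: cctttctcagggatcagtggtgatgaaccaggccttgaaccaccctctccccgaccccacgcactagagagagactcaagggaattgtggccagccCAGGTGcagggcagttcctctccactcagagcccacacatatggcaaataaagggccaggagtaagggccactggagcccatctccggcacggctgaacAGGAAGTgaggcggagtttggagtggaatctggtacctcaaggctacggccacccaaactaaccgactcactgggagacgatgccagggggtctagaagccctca
Fcmr, chr1:130865527-130865826, plus strand: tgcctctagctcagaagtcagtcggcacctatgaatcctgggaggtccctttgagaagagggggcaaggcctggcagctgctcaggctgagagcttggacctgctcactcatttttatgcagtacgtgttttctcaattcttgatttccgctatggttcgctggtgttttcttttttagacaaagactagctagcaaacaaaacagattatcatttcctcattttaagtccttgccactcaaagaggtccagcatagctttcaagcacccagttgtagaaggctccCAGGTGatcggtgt
Cd22, chr7:30878979-30879278, minus strand: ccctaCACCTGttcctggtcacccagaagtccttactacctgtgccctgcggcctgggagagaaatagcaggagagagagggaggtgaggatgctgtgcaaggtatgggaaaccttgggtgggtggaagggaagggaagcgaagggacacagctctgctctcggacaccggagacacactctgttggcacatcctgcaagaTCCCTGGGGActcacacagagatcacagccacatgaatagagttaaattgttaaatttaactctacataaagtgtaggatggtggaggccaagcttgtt
In the Cd79a window the E box begins at position -154 relative to the start site and the Ets site at -55. The Fcmr window has an E box beginning at position 37. The Cd22 window has an E box at -245 and the EBF palindrome at -49. In all 3 windows the RefSeq start lies inside the GENCODE gene span. None of the matches overlapped another. The unprinted windows of Cr2 and Fcer2a hold E boxes only. Of 32851 promoters of this length, 1.74% hold the octamer, 0.904% the EBF palindrome, 20.2% the E box and 9.35% the Ets site. The octamer was in none of the members' windows, and Pax5 had no match to any of the 4 motifs. Matches describe letters in the windows only.

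**Figure D1:**
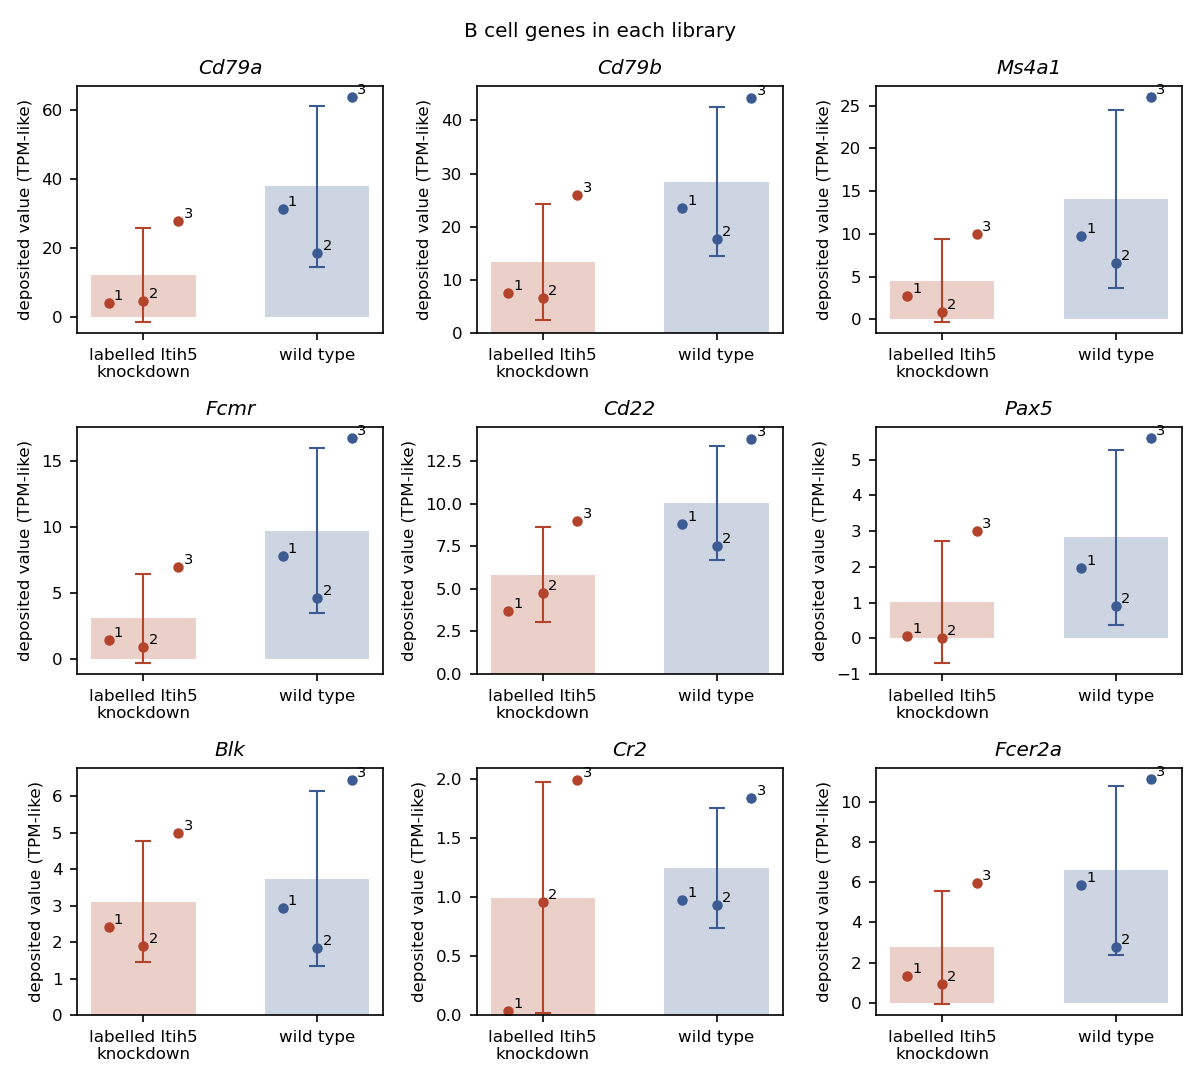
Deposited TPM-like values of the 9 B cell genes (y axis, linear) in the libraries labelled Itih5 knockdown and in wild type. Points are libraries numbered by replicate, bars are means and error bars SD (n = 3 each). Replicate 3 is the highest library of its group in every panel, for example 27.9 and 63.7 for Cd79a.

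Among the other surface proteins, Ms4a1 encodes CD20, the membrane protein targeted by B cell-depleting antibodies. It lies on the minus strand of chromosome 19 from 11249675 to 11266241, and its whole span is overlapped by an antisense transcript, 4930526L06Rik. Reads of the 2 could not be told apart if the counting ignored strand, which is not stated, and the same holds for parts of Cd22 and Pax5, overlapped by Gm29439 and Gm12462. Ms4a1 was at 2.70, 0.867 and 9.98 in the libraries labelled knockdown, against 9.78, 6.53 and 26.0 in wild type. The library labelled knockdown replicate 2 had 1 step of signal, and replicate 3 exceeded wild-type replicates 1 and 2. The log2 difference was -1.62 (SE 0.70, 95% interval -3.27 to 0.03, limma adjusted p = 0.340).

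Fcmr encodes the Fc receptor for IgM and is on chromosome 1, plus strand, from 130865669 to 130880791. It was at 1.43, 0.896 and 6.99 in the libraries labelled knockdown, against 7.83, 4.65 and 16.7 in wild type. Replicates 1 and 2 of the labelled knockdown group were near a single step, and replicate 3 lay between wild-type replicates 2 and 1. The log2 difference was -1.53 (SE 0.61, 95% interval -2.97 to -0.09, limma adjusted p = 0.322).

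Fcer2a encodes CD23, the low-affinity IgE receptor of follicular B cells, on the minus strand of chromosome 8 from 3681737 to 3694175. Its values were 1.35, 0.914 and 5.99 in the libraries labelled knockdown, against 5.88, 2.77 and 11.2 in wild type. Replicate 3 of the labelled knockdown group again lay within wild type, and the log2 difference was -1.11 (SE 0.58, 95% interval -2.48 to 0.26, limma adjusted p = 0.386).

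Cr2 encodes complement receptor 2 and, in mice, by alternative splicing also complement receptor 1. It lies on the minus strand of chromosome 1 from 195136811 to 195176716. It was the lowest of the 9 by mean, at 0.0351, 0.959 and 1.997 in the libraries labelled knockdown, against 0.974, 0.932 and 1.84 in wild type. All 6 libraries were at about 0, 1 or 2 steps, and Cr2 was the only member whose mean in the libraries labelled knockdown (0.997) was under 1, the minimum for testing, with a mean of 1.25 in wild type. Its log2 difference of -0.28 (SE 0.41, limma adjusted p = 0.753) was far within its error, and a change of this size was not detectable at this precision. Cr2 and Fcer2a are also expressed by follicular dendritic cells, stromal cells of B cell follicles. Of 8 markers listed for those cells 6 were in the table and tested, 5 with a lower mean in the libraries labelled knockdown (median log2 difference -0.32) and 0 called. Tnfsf11 (-1.10) and Mfge8 (-0.27), singled out after their values were seen, were lower without overlap, where 9.88% of all tested genes were. Tnfsf11 reached the minimum mean of 1 only through wild type, averaging 0.668 in the libraries labelled knockdown and 2.52 in wild type. Its lack of overlap therefore carries no weight. By mean centred log2 level the list was at -0.82, -0.53 and 0.16 in the libraries labelled knockdown, against 0.21, 0.30 and 0.67 in wild type. In replicate 2 of the labelled knockdown group this low level came mostly from Cxcl13, listed at 0 there. In that library Tnfsf11 (0.949) and Mfge8 (419) were below wild type, Vcam1 (70.4) and Ltbr (80.9) within it and Clu (4772) above it. Only Clu, the highest by mean, which heart tissue expresses widely, had a higher mean on the log2 scale, and it averaged 3342 ± 1322 in the libraries labelled knockdown and 2974 ± 435 in wild type (SD, n = 3 each). The summed level of the 6, most of it Clu, was 2740 to 5344 in the libraries labelled knockdown, against 3322 to 4099 in wild type. Cxcl13 was listed at 0 in the library labelled knockdown replicate 2, and the part of these markers in the B cell values was not tested.

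Cd22, which encodes an inhibitory sialic acid-binding receptor, had the steadiest values of the better expressed members. It lies on the minus strand of chromosome 7 from 30865402 to 30880342. It was at 3.72, 4.77 and 8.98 in the libraries labelled knockdown, against 8.80, 7.50 and 13.8 in wild type. Replicate 3 of the labelled knockdown group was above wild-type replicates 1 and 2. The log2 difference was -0.73 (SE 0.32, 95% interval -1.47 to 0.02, limma adjusted p = 0.341).

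The intracellular members were both low. Blk, which encodes a SRC-family kinase that phosphorylates the CD79 tails, lies on the minus strand of chromosome 14 from 63372836 to 63417037. It was at 2.41, 1.90 and 4.99 in the libraries labelled knockdown, against 2.93, 1.84 and 6.45 in wild type. Wild-type replicate 2 was the lowest library, which holds for no other member. Its log2 difference was -0.16 (SE 0.41, 95% interval -1.13 to 0.80, limma adjusted p = 0.858), and it became positive when the library labelled knockdown replicate 2 (0.05) or wild-type replicate 3 (0.22) was left out.

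Pax5 encodes the transcription factor that commits cells to the B lineage, on the minus strand of chromosome 4 from 44524757 to 44710487. It was at 0.0689, 0 and 2.99 in the libraries labelled knockdown, against 1.95, 0.913 and 5.60 in wild type. In the libraries labelled knockdown it was thus listed at 0 in replicate 2, close to 0 in replicate 1 and at 3 steps in replicate 3. Replicate 1 of that group held 1077 values above 0 and under 0.2, among them those of Pax5 and Cr2, where the other 5 libraries held none. The log2 difference was -1.04 (SE 0.65, 95% interval -2.58 to 0.49, limma adjusted p = 0.449).

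**Figure D2:**
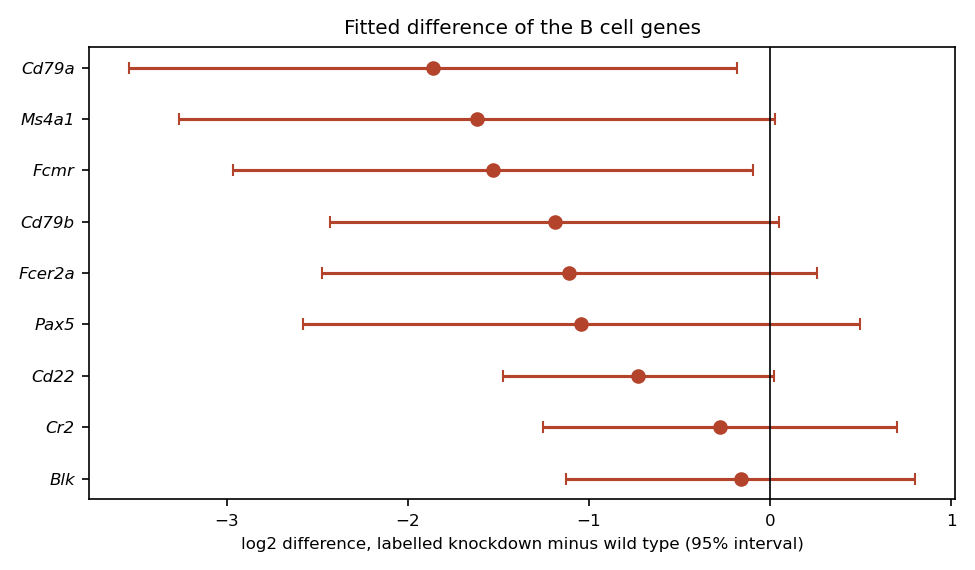
Log2 difference (x axis, labelled knockdown minus wild type, on log2(value + 1)) of the 9 genes, with points for the limma estimate and lines for the 95% interval. All 9 estimates are negative, from -1.86 for Cd79a to -0.16 for Blk, and 7 of the 9 intervals include 0. Cr2 reached the minimum mean of 1 only through wild type, so its direction carries no weight.

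The libraries ordered most of the 9 genes alike. The Pearson correlation between pairs of members over the 6 libraries ranged from 0.616 to 0.995 with a median of 0.961 over 36 pairs, a description of values that share libraries. The summed level of the 9 was 23.5, 21.5 and 95.8 in the libraries labelled knockdown, against 92.9, 61.6 and 189.6 in wild type. The spread was wide in both groups. For Cd79a the SD of the log2 values was 1.39 in the libraries labelled knockdown and 0.86 in wild type. Averaged over all 6 libraries, the levels ran from Cd79a (25.1) through Cd79b (20.9), Ms4a1 (9.31), Cd22 (7.93), Fcmr (6.42), Fcer2a (4.68), Blk (3.42) and Pax5 (1.92) to Cr2 (1.12). Each step in this order is smaller than the SD of the higher gene over the 6 libraries. The members rise and fall together, however, so that SD does not measure how firm the order is within a library. Cd79b, for example, was above Ms4a1 in each library. Cd79a led in the library labelled knockdown replicate 3 and in each wild-type library, and Cd79b in replicates 1 and 2 of the labelled knockdown group.

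Single libraries decided much of the result. With replicate 3 of the labelled knockdown group left out, 7 of 8 tested members were lower at an unadjusted p under 0.05, where 8.82% of tested genes were. In that comparison 7 did not overlap between the groups, where 18.4% of tested genes were lower without overlap. The 7 are those for which replicates 1 and 2 of that group had the lowest values, so this count adds no support. Without wild-type replicate 2, 6 of 9 were lower at an unadjusted p under 0.05 (6.72% of tested genes). There 2 of 9 did not overlap, a share near the 18.4% of tested genes that were lower without overlap. The number was 0 without replicate 1 of the labelled knockdown group (background 3.9%), without its replicate 2 (7.1%), without wild-type replicate 1 (2.38%) and without wild-type replicate 3 (2.81%). No member was called after adjustment in any of these 6 fits.

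Further B cell genes were read from lists drawn up for the pathway. Of 12 antigen receptor chain genes listed, 11 were in the table and tested, 10 with a lower mean in the libraries labelled knockdown (median log2 difference -1.41), and 0 were called. Ighm, the IgM heavy chain gene, had a log2 difference of -2.96 (SE 0.82, limma adjusted p = 0.296), with Iglc3 at -1.78, Igkc at -1.27 and Ighg1 at -0.90. Of the 11, 1 was lower without overlap, a share near the 9.88% of all tested genes. This was Ighm, at 45.1, 54.4 and 446 in the libraries labelled knockdown, against 728, 623 and 1170 in wild type. Ighm was called only without the library labelled knockdown replicate 3 (log2 difference -4.003, limma adjusted p = 0.00783), and over the other alternatives its adjusted p ranged from 0.167 to 0.646.

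Of 18 tested genes among the other B cell surface genes, 17 had a lower mean, and 0 were called lower and 0 higher. Without overlap, 5 were lower and 1 higher, where 9.88% and 12.6% of all tested genes were. The median log2 difference was -0.48. The Fc receptor-like gene Fcrl1 was at 3.67, 5.76 and 4.99 in the libraries labelled knockdown, against 7.83, 7.54 and 10.1 in wild type. Its log2 difference was -0.71 (SE 0.18), beside -0.64 for Cd24a, -0.50 for H2-Oa, which encodes a chain of a regulator of MHC class II loading, and -1.54 for Ly6d. In contrast to the 9 members, Fcrl1 was below wild type also in replicate 3 of the labelled knockdown group.

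Receptor signalling genes had smaller differences. Of 33 tested, 29 had a lower mean and 0 were called in either direction, with 8 lower and 0 higher at an unadjusted p under 0.05, where 6.55% and 8.29% of all tested genes were. The median log2 difference was -0.23, and 10 were lower without overlap, against 9.88% of all tested genes. Btk, the kinase gene whose loss blocks B cell maturation, was at 7.33, 13.5 and 12.0 in the libraries labelled knockdown, against 20.6, 16.0 and 20.1 in wild type. Its log2 difference was -0.77 (SE 0.22), and that of the inositol phosphatase gene Inpp5d was -0.52, of the phospholipase gene Plcg2 -0.47 and of the adaptor gene Pik3ap1 -0.61. These 4 genes are also expressed by macrophages. All 10 macrophage markers had lower means, and none was at 0. Their summed level was 3849 to 7667 in the libraries labelled knockdown, against 8218 to 10946 in wild type, led by Lyz2 with a mean of 2976 ± 1086 in the libraries labelled knockdown and 4907 ± 871 in wild type (SD, n = 3 each). The part of macrophages in the signalling genes was not tested.

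Of 17 B lineage transcription factor genes tested, 11 had a lower mean and 6 a higher one (median log2 difference -0.32), and 0 were called in either direction. Pou2af1, which encodes a coactivator of octamer factors, was at 1.38, 1.88 and 7.98 in the libraries labelled knockdown, against 6.84, 6.56 and 12.1 in wild type. Spib (log2 difference -1.04), another B cell factor, had the same order of libraries within each group. Ikzf1 (-0.61) and Bcl6 (-0.40), which other leukocytes also express, did not overlap between the groups. Of the 17 genes, 2 were lower and 1 higher without overlap, where 9.88% and 12.6% of all tested genes were. Ebf1, a B lineage factor that stromal cells and adipocyte precursors also express, was at 24.2, 20.2 and 21.96 in the libraries labelled knockdown, against 18.5, 20.6 and 19.8 in wild type, and was singled out after its values were seen.

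Plasma cell genes, those of antibody-secreting cells, all had lower means (14 of 14 tested, median log2 difference -0.30), with 0 called. Of the 14, 2 were lower without overlap, where 9.88% of all tested genes were. One of these was the syndecan gene Sdc1, which stromal cells express as well, at 40.4, 71.3 and 72.8 in the libraries labelled knockdown, against 95.8, 96.9 and 100.8 in wild type. The log2 differences of Edem1 (-0.34), Derl3 (-0.47) and Irf4 (-0.54) were smaller than that of Sdc1 (-0.71), and their groups overlapped. Those of Jchain (-0.80) and Mzb1 (-0.75), singled out after their values were seen, were larger, also with overlap.

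Genes of B cell homing and survival were called in neither direction (0 of 14 tested, 12 with a lower mean, median log2 difference -0.41). Tnfrsf13c, which encodes the BAFF receptor that mature B cells need to survive, was at 1.29, 0 and 3.99 in the libraries labelled knockdown, against 4.89, 3.75 and 8.38 in wild type. The log2 difference was -1.51 (SE 0.56, limma adjusted p = 0.313). The TACI gene Tnfrsf13b (-0.78) and Cxcr5 (-1.05), the receptor gene for the follicle chemokine CXCL13, had lower means too. Cxcl13 itself, singled out after its values were seen, was at 0.796, 0 and 44.9 in the libraries labelled knockdown, against 18.5, 25.3 and 105 in wild type. Its log2 difference was -3.12 (SE 1.41, 95% interval -6.43 to 0.19, limma adjusted p = 0.350). Its difference was -4.82 with replicate 3 of the labelled knockdown group left out and -2.06 with replicate 2 of that group left out.

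**Figure D3:**
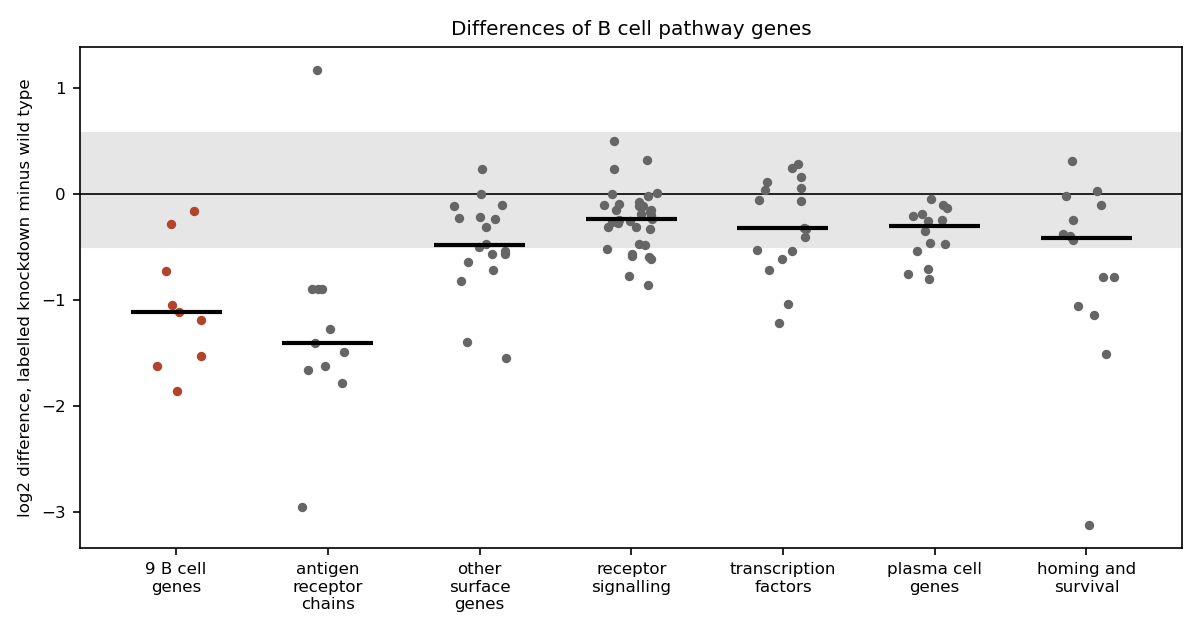
Log2 differences (y axis, labelled knockdown minus wild type) of the 9 B cell genes and of 6 lists of related genes. Points are genes, horizontal lines medians, and the grey band spans percentiles 5 to 95 of all tested genes (-0.50 to 0.58). The medians are -1.11 for the 9 genes, -1.41 for antigen receptor chains and -0.23 for receptor signalling.

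The 10 genes most like the mean of the 9 were ranked over 10479 candidates (mean 5 or more) by the Pearson correlation of log2 values over the 6 libraries. Among them were Pi4ka, Wdr36, Elf4, Ly6d, Maoa, Rnase6, Spib, Cox11 and Gbf1. The 10 had Pearson correlations from 0.986 to 0.998 and Spearman correlations from 0.886 to 1. Of those named, Ly6d (3.72 to 38.9) and Spib (1.36 to 11.1) varied widely, whereas Pi4ka varied only between 11.5 and 15.4. With 6 libraries and this many candidates, such values describe these libraries only.

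Adipocyte and mesothelial markers, like the B cell genes, had low mean centred levels in replicates 1 and 2 of the labelled knockdown group. Adipocyte markers had a mean centred log2 level of -2.14, -2.16 and 1.61 in the libraries labelled knockdown, against 0.32, 1.58 and 0.79 in wild type. The B cell genes had -1.03, -1.12 and 0.56 in the libraries labelled knockdown, against 0.39, -0.11 and 1.30 in wild type. Both were thus low in replicates 1 and 2 of the labelled knockdown group, but among wild-type libraries the adipocyte level was highest in replicate 2, where the B cell level was lowest. Of 10 adipocyte markers, 4 were listed at 0 in the library labelled knockdown replicate 2 (Cidec, Plin1, Retn and Lep). The summed level of the 10 was 1058, 243 and 2060 in the libraries labelled knockdown, against 848, 1761 and 1013 in wild type. By this sum only replicate 2 of the labelled knockdown group was below wild type. The highest by mean was Fabp4, which endothelial cells express as well, at 606 ± 408 in the libraries labelled knockdown and 327 ± 31.1 in wild type (SD, n = 3 each).

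Mesothelial markers, of the lining of the heart's surface, had a mean centred level of -1.74, -0.75 and 1.08 in the libraries labelled knockdown, against 0.19, 0.63 and 0.59 in wild type. Their summed level was 22.7 to 203 in the libraries labelled knockdown, against 100.3 to 146 in wild type. Muc16 was listed at 0 in the library labelled knockdown replicate 2 and in wild-type replicate 1, and Msln, the highest by mean, was at 2.70, 8.64 and 50.9 in the libraries labelled knockdown, against 27.3, 46.2 and 18.4 in wild type. How much adherent fat or surface lining contributes to the B cell values was not tested.

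T cell markers were at a mean centred level of -0.57, -0.17 and 0.48 in the libraries labelled knockdown, against -0.11, 0.06 and 0.32 in wild type. All 13 were above 0 in each library, 12 had a lower mean, 0 were called, and their median log2 difference was -0.17. Thy1, the highest by mean, averaged 143 ± 34.5 in the libraries labelled knockdown and 163.9 ± 4.48 in wild type (SD, n = 3 each). Over all libraries Thy1 averaged 154 and the next highest, Trac, 17.1, so Thy1 does not show the level of the list. Heart muscle markers were high in the library labelled knockdown replicate 1, with a summed level of 7981 to 27511 in the libraries labelled knockdown, against 7817 to 9412 in wild type. Erythroid markers, which follow residual blood, were also highest there, with a sum of 346 to 2581 in the libraries labelled knockdown, against 252 to 669 in wild type. The highest of each by mean were Actc1 (3774 ± 1683 in the libraries labelled knockdown, 2808 ± 296 in wild type) and Hbb-bs (702 ± 609 in the libraries labelled knockdown, 222 ± 114 in wild type; SD, n = 3 each). By mean centred level, heart muscle markers were at 1.31, 0.20 and -0.48 in the libraries labelled knockdown, against -0.28, -0.33 and -0.43 in wild type. Erythroid markers were at 1.51, -0.63 and 0.52 in the libraries labelled knockdown, against 0.10, -0.59 and -0.91 in wild type. The library with the most of both was thus among those lowest in B cell genes, and the part of either in the B cell values was not tested.

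Of the remaining lists, lymphatic endothelial markers had higher means for 5 of 7 tested genes (median log2 difference 0.31). Mmrn1 (0.95) and Ccl21a (0.74), also singled out after their values were seen, were higher without overlap, where 12.6% of all tested genes were. The median was -0.08 over 10 fibroblast markers and -0.31 over 6 plasmacytoid dendritic cell markers, and 0 genes were called in each of these lists. Pdpn, the highest lymphatic marker by mean, was lower without overlap, where 9.88% of all tested genes were. It averaged 85.9 ± 24.6 in the libraries labelled knockdown and 117.9 ± 9.92 in wild type, and Col3a1, the highest fibroblast marker, 4495 ± 1151 in the libraries labelled knockdown and 5207 ± 470.4 in wild type (SD, n = 3 each). Ly6d also stands in the plasmacytoid list, whose highest gene, Cox6a2, is expressed in heart muscle too and averaged 735 ± 567 in the libraries labelled knockdown and 335.9 ± 29.7 in wild type (SD, n = 3 each). By mean centred level the plasmacytoid list was at -0.20, -0.32 and 0.23 in the libraries labelled knockdown, against 0.13, 0.04 and 0.13 in wild type, the same order within the labelled knockdown group as the B cell genes over a narrower range.

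**Figure D4:**
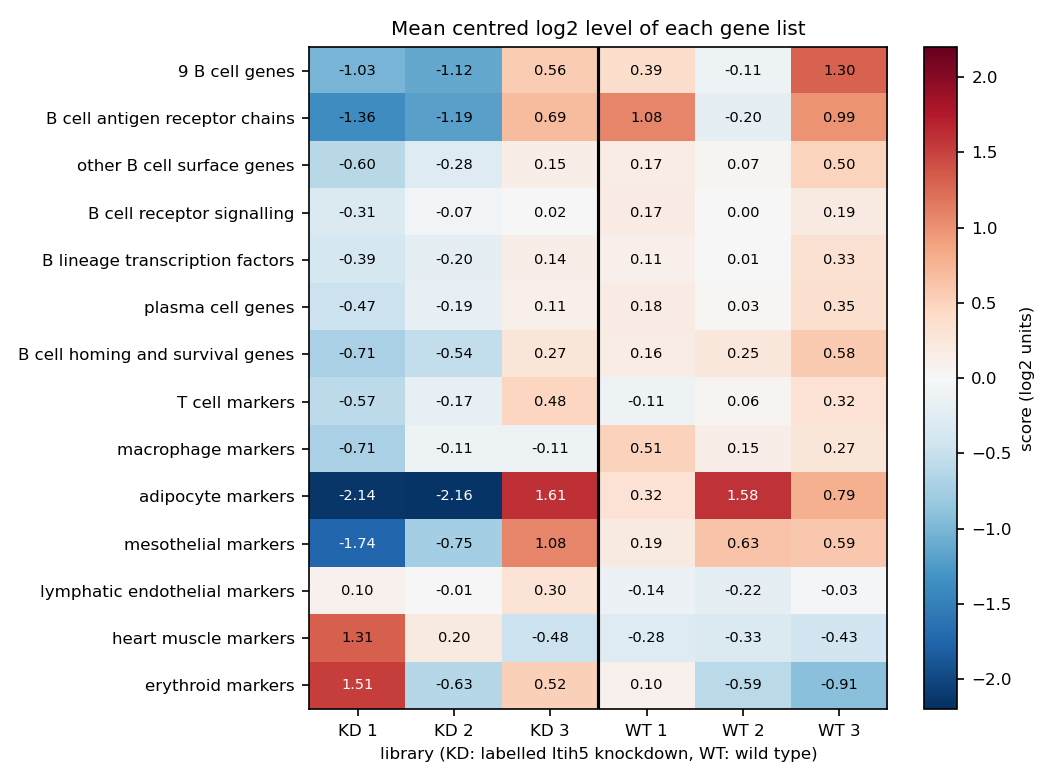
Mean centred log2 level of each gene list (rows) in each library (columns), in log2 units, red above and blue below the gene's mean over the 6 libraries. The 9 B cell genes (-1.03 and -1.12) and the adipocyte markers (-2.14 and -2.16) are both low in the libraries labelled knockdown replicates 1 and 2.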

How the data were processed

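RNA-seq libraries of infarcted mouse myocardium, 3 labelled Itih5 knockdown and 3 wild type, were compared. Poly(A) RNA was enriched with oligo(dT) beads, per the labels' protocols, which name 2 library kits, only 1 of them called directional, without saying which served which library. Per the submitters' processing notes, the genome build was mm10. The sources used here do not give the aligner, quantifier or annotation. The deposited table holds 16205 rows of an adjusted score: the file is named as TPM, but its columns sum to between 901563 and 1159657 and small values are stepped, with a step particular to each library. The adjustment is not stated.

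A pseudocount of 1 was added before taking log2, which understates changes of low genes, and the 14025 genes averaging 1 or more were tested. Of repeated symbols, 6 rows were left out. Groups were compared with limma 3.58.1 (R 4.3.3) with an intensity trend, no covariate, and Benjamini-Hochberg adjustment at 0.05 over all genes. The test had been planned for TPM. The fit was tested on simulated data. A list's mean centred level is the average of its genes' log2 values after each gene was centred on its 6-library mean. Gene coordinates are from GENCODE M21, which uses mm10.

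The members and lists were chosen with earlier results of these data known. Named genes are the members, Itih5, up to 4 genes of each B cell list with the smallest p, the marker gene with the highest mean of lists that bear on a result, the 10 genes most like the members, and some said to be singled out after their values were seen. Some genes that this rule takes are not reported here. Alternatives changed the pseudocount, the filter, the scaling, the test's settings, the replicate block and the libraries used.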

Additional observations from a re-analysis of the deposited data

How the results depend on the processing

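No member and no gene was called higher, and no member lower, under any of the 16 alternatives. The median log2 difference of the members stayed between -1.53 and -0.89 under the 10 alternatives that keep all libraries, and between -1.73 and -0.75 when 1 library was left out. A minimum mean of 5 left 5 members to test. Scaling to a sum of 1000000 moved the median of all genes to -0.13 and that of the members to -1.22. The number of members lower at an unadjusted p under 0.05 was 2 or 3 under 7 of these 10 (5.58% to 9.92% of all tested genes). It was 4 with values scaled to the same median (8.81%) and 4 with array weights (9.25%). When 1 library was left out it was 0 to 7 (2.38% to 8.82%). Leaving out 1 library gave 0 to 13 genes called lower over the whole table (13 with replicate 3 of the labelled knockdown group left out, 2 with wild-type replicate 2 left out). It gave 0 to 7 members without overlap, where 11.8% to 18.4% of tested genes were lower without overlap. Of 138 member values under alternatives, 135 kept their direction. The exceptions were Blk (0.05 and 0.22, range -0.47 to 0.22 with 1 library left out) and Cr2, at 0.13 without the library labelled knockdown replicate 1 (range -0.38 to 0.13). The causes were not tested. Cr2 gave no value without the library labelled knockdown replicate 3 or wild-type replicate 3, its mean falling under 1.

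With the replicate block, 7 members were lower at an unadjusted p under 0.05 (5.45% of all tested genes) and 0 after adjustment. Deviations of same-numbered libraries correlated at 0.056 to 0.143, not over 0.1 in each pair, so the numbers were not taken to pair the libraries. From the data, not the design, 5 of 6 libraries correlated best with their own number, at most a weak hint of pairing. Deviations centred within groups of 3 are tied together, and margins could be small. Replicate 2 of the labelled knockdown group was at 0.0608 with wild-type replicate 2 and 0.0595 with wild-type replicate 1. Rounding to steps limits Cr2, Pax5 and Blk most.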

Other observations

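Igha, singled out after its values were seen, which encodes the heavy chain of the mucosal antibody class, was at 166, 129 and 292 in the libraries labelled knockdown, against 47.6, 58.6 and 189.8 in wild type, with overlap. It was the only 1 of the 11 chain genes with a higher mean (log2 difference 1.18, SE 0.53, limma adjusted p = 0.351), and replicate 3 was the highest library of both groups, as for the 9 B cell genes. The level of Ighm divided by that of Cd79a was 10.6, 11.8 and 15.96 in the libraries labelled knockdown, against 23.2, 33.4 and 18.4 in wild type. The groups did not overlap, although Cd79a itself overlapped, and the ratio was not tested, having been chosen after its values were seen. For Igkc over Cd79a the order was the other way, at 112, 95.3 and 56.7 in the libraries labelled knockdown, against 56.8, 69.4 and 32.1 in wild type, with overlap.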
